A study of Rattus norvegicus with 8 samples.

Results

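Lysosomal enzymes and membrane proteins were followed in laser-captured motoneurons of the rat lumbar spinal cord. The set was chosen by name, as every probe set whose only annotated gene symbol was one of 31 genes of lysosomal hydrolases, their activators, membrane proteins and regulators. All 31 genes were found among 14217 genes with such a probe set, by 44 of 31042 probe sets on the array. Motoneuron pools of 21-day-old Wistar albino rats (P21, after myelination is complete) were compared with pools of 1-day-old Wistar albino rats (P1, while axons are being myelinated). No genotype or drug treatment is given for either age. Each age had 4 biological replicates on 1 Affymetrix RAE230 2.0 array each, from litters that were divided between the ages. Each array was hybridised with RNA of 1500 to 2000 motoneurons, cut by laser from 12 µm sections stained with cresyl violet. About 50 ng of RNA came from a pool of 4 rats and was amplified in 2 rounds, so a value is an average over animals. Cells were taken by their look under the stain, so RNA of touching glia, vessels or microglia can be included, and a change in the number of such cells cannot be told apart from a change in RNA per cell.

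Lysosomes are acidic organelles in which proteases, glycosidases, lipases and sulfatases break down material delivered by endocytosis and autophagy. The enzymes are made in the endoplasmic reticulum and most are sorted by mannose 6-phosphate receptors, while membrane proteins such as LAMP1 and LAMP2 line the organelle. TFEB, a transcription factor held inactive by mTORC1 at the lysosomal surface, switches on many lysosomal genes. Neurons are long-lived and depend on this route, and inherited loss of many of these enzymes causes storage disease with neurodegeneration.

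Array medians were between 399.6 and 416 at P21 and between 323 and 408 at P1. The correlation over the kept probe sets was between 0.958 and 0.986 for arrays of the same age, and between 0.821 and 0.868 for arrays of different ages. Of 8 measured motoneuron markers, 1 was higher at P21 (Chat, log2 change 1.32 ± 0.14), 1 was lower (Isl1, log2 change -1.67 ± 0.24) and 6 did not pass, and the neurofilament genes Nefm and Nefl averaged 10265 and 9434 at P21, against 10676 and 8977 at P1. Markers of other cells moved with age. Of their brightest genes, Mbp averaged 8289 at P21 and 2002 at P1, Cnp averaged 5955 at P21 and 2505 at P1, Lyz2 averaged 2003 at P21 and 124 at P1, Aif1 averaged 869 at P21 and 851 at P1, Aldoc averaged 6131 at P21 and 6732 at P1, and Gja1 averaged 7032 at P21 and 4425 at P1. The summed intensity of 11 oligodendrocyte markers was 39071 to 41872 on the P21 arrays, against 9242 to 11229 on the P1 arrays, and 10 of the 11 were higher at P21. For 15 microglia and macrophage markers the sum was 6987 to 11332 on the P21 arrays, against 3744 to 5122 on the P1 arrays. Of the 10 of these tested, 7 were higher and 1 was lower, while Itgam, Cx3cr1, Ptprc and Trem2 lay under the filter level (the 40th percentile of an array) on every array. The sums of 10 astrocyte markers were 25299 to 29669 on the P21 arrays, against 18219.7 to 21191 on the P1 arrays. Of the 10 tested, 7 were higher and 1 was lower. The sums of 11 vessel markers were 11446 to 23214 on the P21 arrays, against 7996 to 9944 on the P1 arrays. Of the 10 tested, 6 were higher and 0 lower. Neither sum overlapped between the ages. The brightest genes of the vessel list, the collagen genes Col1a1 and Col1a2, averaged 4814 and 4197 at P21, against 1723 and 1091 at P1. Taking off both genes leaves P21 replicate 4 below P1 replicate 4, whose vessel sum of 9944 held 2259 of Col1a1 and 1536 of Col1a2. The ages then overlap, so the separation of the vessel sums rests on these collagen genes. P21 replicate 4 stood apart, with the highest microglial and vessel sums of all 8 arrays. Most of its vessel sum of 23214 came from Col1a1 (8626) and Col1a2 (8464), so that height reflects these collagen genes. The part of these other cells in the changes of lysosomal genes was not tested.

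The lysosomal genes as a group did not move one way. Of the 31 genes, 30 had a probe set above the filter level on at least 4 of the 8 arrays and were tested, and 9 of these rose, 4 fell and 17 did not pass. The test was limma on log2(intensity + 16), with p-values adjusted by the Benjamini-Hochberg method over all 19155 probe sets kept and a call at an adjusted p under 0.05. The 13 called genes are 43.3% of those tested. Of all 10961 genes, 39.5% were called, so in this unpaired fit the share was near the background. The rises were 30% of the genes tested (22.1% of all genes) and the falls 13.3% (17.4% of all genes). The median change, as log2 of P21 over P1, was 0.29, against 0.05 for all genes. Without overlap between the 4 arrays of each age were 11 genes, 9 higher and 2 lower at P21, or 36.7% against 40.2% of all genes. Of the called genes, 12 changed by less than 2-fold, and for Ctsz, with a P1 level under the filter level, only a lower bound is given. Ctsz is among the rises and the genes without overlap, but was kept through its P21 values alone and had to differ.

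The main fit, which gave all values unless stated, did not pair the arrays. Deviations of same-numbered arrays correlated, though weakly for number 4. A paired fit with the replicate number as a block was therefore run as an alternative. In it 15 genes rose (50%, against 26.1% of all genes) and 4 fell (13.3%, against 20.6%). Called in that fit were 63.3% of the genes tested, against 46.8% of all genes. After centring of the arrays on their medians, 5 rose (16.7%, against 14.5% of all genes) and 4 fell (13.3%, against 21.8%), with 36.2% of all genes called and a median change of 0.15. Centring moved the median of all genes from 0.05 to -0.09 and the share of calls that were higher at P21 from 55.8% to 39.9%, so the sign of changes below that shift depends on the scaling. Below, intensities are linear, changes are log2 of P21 over P1 ± their standard error, and n = 4 arrays per age.

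**Figure D1:**
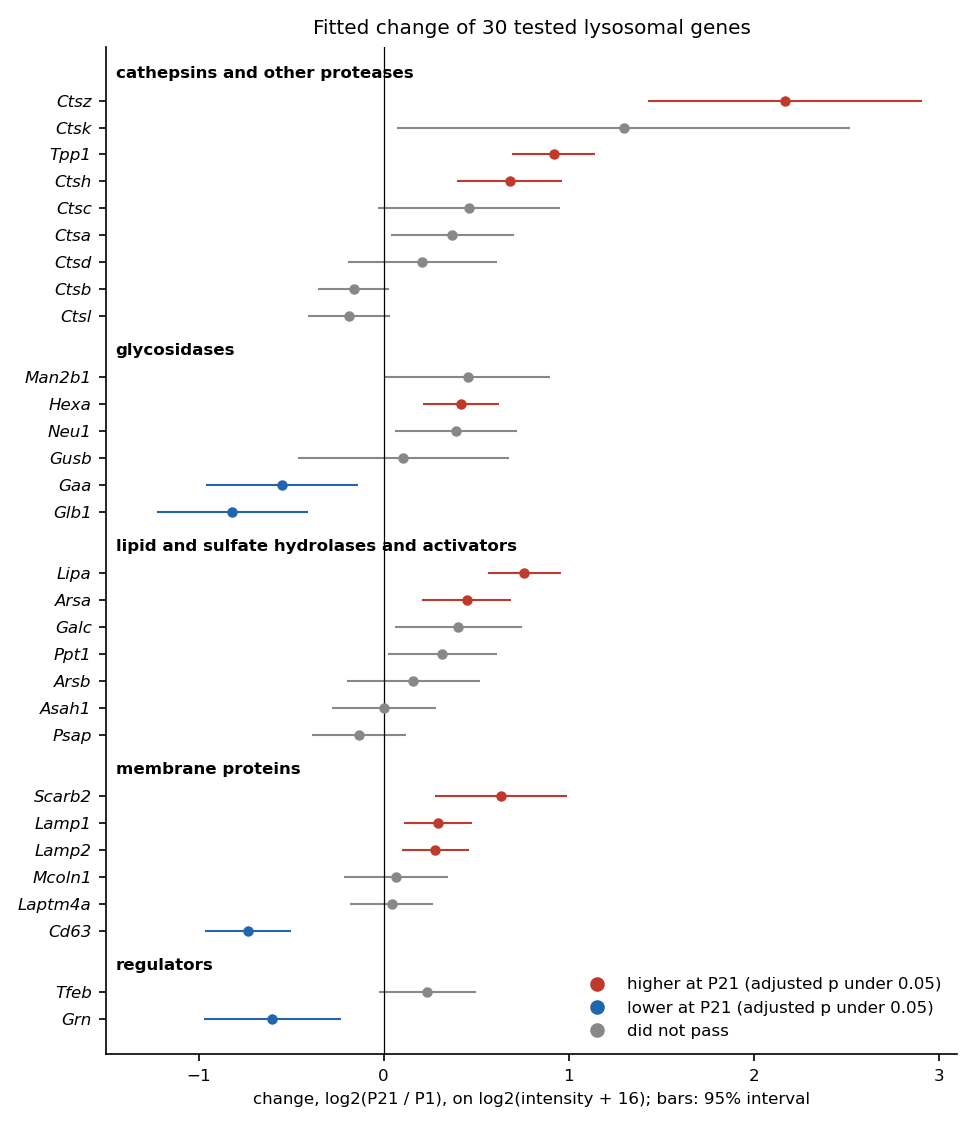
Fitted change of each of the 30 tested lysosomal genes, as log2 of P21 over P1 on log2(intensity + 16), grouped by role; bars are 95% intervals and colours show the limma call. Ctsz lies farthest to the right at 2.17, and Glb1, Cd63, Grn and Gaa are the genes whose intervals lie below 0.

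The promoters of these genes were read for the E-box that TFEB and related factors bind. RefSeq promoters (250 bases before to 50 after the gene start, rat build GRCr8) were available for 24 of the 31 genes. The core CACGTG, which reads the same on both strands, was in 8 of the 24 (33.3%), against 6.42% of 33469 promoters in the table and 7.02% of 21851 protein-coding ones. The longer motif TCACGTG, which contains that core and was sought on both strands, was in 7 of the 24 (29.2%), against 3.20% and 3.68%. At least 2 cores were in 4 of the 24 (16.7%), against 0.618% of protein-coding promoters. Lamp1 held 5, and was the 1 protein-coding promoter of 21851 with so many.

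The genes that hold the core went different ways. Among the 23 tested genes with a promoter, it was in 1 of 7 that rose (Lamp1), 3 of 4 that fell (Glb1, Gaa and Cd63) and 3 of 12 that did not pass (Ctsd, Galc and Mcoln1), and the untested Cln3 held 2. A match describes the letters of the window and is not evidence of binding. The stretches below are shown because they carry the motif in a gene that rose, in genes that fell, in one that did not pass (Mcoln1) and in one that was not tested (Cln3), written 5′ to 3′ on the strand of the gene, with the motif in capitals and only bases before the gene start. Lamp1 is on the minus strand at chr16:83075181-83075273 and chr16:83075069-83075155, Glb1 on the plus strand at chr8:122963591-122963650, Gaa on the plus strand at chr10:105028261-105028320, Cd63 on the plus strand at chr7:1921927-1921986, Mcoln1 on the plus strand at chr12:6358209-6358257 and Cln3 on the minus strand at chr1:190597935-190598022.
Lamp1, far stretch: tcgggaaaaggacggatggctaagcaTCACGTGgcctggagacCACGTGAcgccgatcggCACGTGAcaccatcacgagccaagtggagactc
Lamp1, near stretch: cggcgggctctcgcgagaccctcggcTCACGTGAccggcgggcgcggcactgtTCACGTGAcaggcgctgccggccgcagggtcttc
Glb1: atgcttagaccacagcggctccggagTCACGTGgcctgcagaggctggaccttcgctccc
Gaa: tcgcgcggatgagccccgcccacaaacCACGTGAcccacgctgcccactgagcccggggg
Cd63: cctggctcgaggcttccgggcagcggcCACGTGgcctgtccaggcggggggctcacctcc
Mcoln1: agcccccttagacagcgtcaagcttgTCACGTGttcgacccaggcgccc
Cln3: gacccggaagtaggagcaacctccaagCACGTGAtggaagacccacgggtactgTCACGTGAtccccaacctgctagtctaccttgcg

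**Figure D2:**
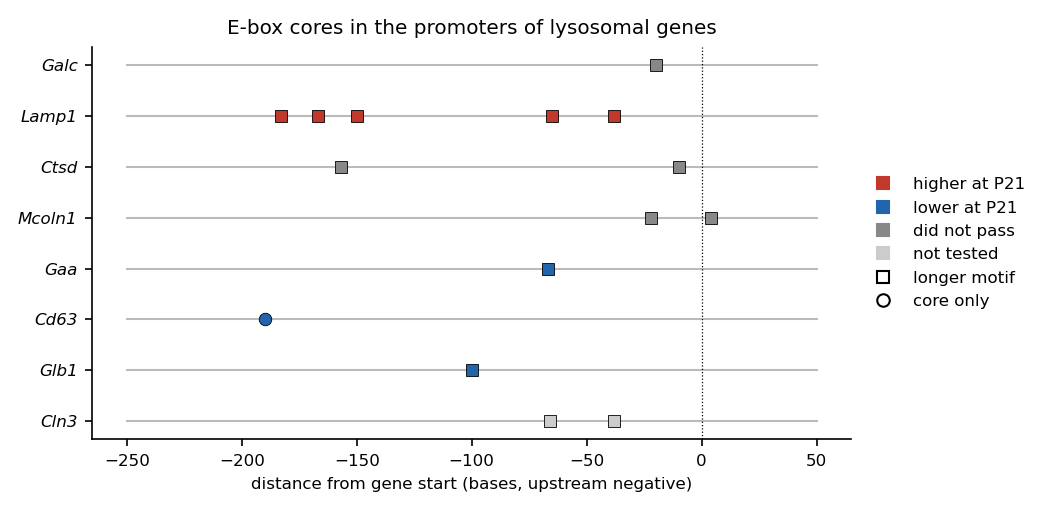
Position of each CACGTG core (first base) in the promoters of the 8 lysosomal genes that hold one, as distance in bases from the gene start; squares lie in the longer motif TCACGTG, circles in the core alone, and colours show the limma call. Lamp1 has 5 squares between -183 and -38, and the promoters of Glb1 and Gaa, which fell, have 1 square each.

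The groups by role are small, and their counts are descriptions beside the 22.1% of all genes that rose and the 17.4% that fell. Among the proteases, 3 of 9 tested genes rose, 0 fell and 6 did not pass. Tpp1 encodes tripeptidyl peptidase, whose loss causes a childhood ceroid lipofuscinosis. Its intensity was 2092, 1723, 1827 and 1831 on the P21 arrays, against 1074, 989, 981 and 876 on the P1 arrays. Every P21 array lay well above every P1 array, and Tpp1 rose 1.89-fold (change 0.92 ± 0.10, adjusted p = 9.09e-05). Ctsh, an aminopeptidase cathepsin, read 1008, 1229.9, 961 and 1367 on the P21 arrays, against 673, 731, 646 and 749 on the P1 arrays. It also rose without overlap (change 0.68 ± 0.13, 1.6-fold, adjusted p = 0.00225).

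Ctsz, a carboxypeptidase cathepsin that is abundant in microglia and other phagocytes, had the largest fitted change of the 30 genes. It read 304, 422, 499.7 and 996 on the P21 arrays, against 82.7, 74.4, 102 and 154 on the P1 arrays. All 4 P1 values were under the filter level, so the probe set was kept through its P21 values alone and had to differ. Its rise is given as at least 1.94-fold (fitted change 2.17 ± 0.33, adjusted p = 6.95e-04), the mean at P21 against the mean filter level of the P1 arrays. P21 replicate 4 was highest, and without it the change was 1.85 (adjusted p = 5.16e-04, 1.39e-04 to 0.00285 over the alternatives).

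Ctsk, the collagen-degrading cathepsin best known from osteoclasts, did not pass (change 1.30 ± 0.55, adjusted p = 0.0892, 95% interval 0.07 to 2.52). It read 557, 439, 288 and 2549 on the P21 arrays, against 246, 213, 278 and 298 on the P1 arrays. A single array, P21 replicate 4, lay far above all the others, and the same array was highest for the collagen genes Col1a1 (8626 against a mean of 3544 on the other P21 arrays) and Col1a2 (8464 against a mean of 2774 on the other P21 arrays). Without that array the change was 0.65 and passed (adjusted p = 0.0424), and without P21 replicate 3, the lowest, it was 1.68 (adjusted p = 0.0357, 0.0357 to 0.152 over the alternatives). Whether collagen-making cells on that array account for its Ctsk was not tested.

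The cathepsins most known as general protein-degrading enzymes did not pass. Ctsd, the main aspartic protease, read 3844, 5071, 5474 and 3523 on the P21 arrays, against 3928, 2879, 4305 and 4317 on the P1 arrays. The ages overlapped (change 0.21 ± 0.18, 95% interval -0.19 to 0.61). Ctsb, a cysteine protease, had a change of -0.16 ± 0.09 (95% interval -0.35 to 0.03) and a range of 5557 to 6182 at P21, against 6122 to 6724 at P1. Ctsl, another cysteine protease, had a change of -0.19 ± 0.10 on the brighter of its probe sets (adjusted p = 0.172). The brighter one was at 3288 to 3955 on the P21 arrays, against 3696 to 4391 on the P1 arrays. Its other probe set was called lower (-0.38 ± 0.12, adjusted p = 0.0319), and the mean of both gave -0.28 (adjusted p = 0.0491, 0.0491 to 0.357 over the alternatives).

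Ctsc, a dipeptidyl peptidase that activates granule proteases of immune cells, had a change of 0.46 ± 0.22 (adjusted p = 0.129), with P1 replicate 2 at 488 and the other P1 arrays between 246 and 301. It passed with the replicate block (adjusted p = 0.0214) and without P1 replicate 2 (change 0.66, adjusted p = 0.015, 0.015 to 0.294 over the alternatives).

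Glycosidases went both ways, with 1 of 6 rising (Hexa), 2 falling (Glb1 and Gaa) and 3 not passing. Glb1, the beta-galactosidase that removes galactose from gangliosides and keratan sulfate, read 1045, 1057, 1735 and 1562 on the P21 arrays, against 2103, 2109, 2437 and 2741 on the P1 arrays. The ages did not overlap, and Glb1 was 1.76-fold lower at P21 (change -0.82 ± 0.18, adjusted p = 0.00606). Its promoter stretch above carries 1 motif. P21 replicates 3 and 4 lay above P21 replicates 1 and 2.

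Gaa, the acid glucosidase that breaks down glycogen and is deficient in Pompe disease, fell by 0.55 ± 0.18 on the log2 scale (adjusted p = 0.0389). It read 1248, 1311, 2124 and 1185 on the P21 arrays, against 2027, 1805, 2355 and 2237 on the P1 arrays. Because P21 replicate 3 lay within the P1 range, the ages overlapped. The call was lost without P21 replicate 1, 2 or 4 or P1 replicate 1, 3 or 4 (adjusted p between 0.0661 and 0.0976) and with no filter (adjusted p = 0.0728, 0.00163 to 0.0976 over the alternatives).

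Hexa, the alpha chain of the hexosaminidase that degrades the ganglioside of Tay-Sachs disease, read 1585, 1762, 1612 and 1669.9 on the P21 arrays, against 1363, 1126, 1246 and 1212 on the P1 arrays. It rose 1.34-fold without overlap (change 0.42 ± 0.09, adjusted p = 0.00544), a call lost on centring (change 0.28, adjusted p = 0.104, 0.00287 to 0.104 over the alternatives). The gene of the beta chain of that enzyme is not analysed here.

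Glb1 protein works in a complex with the carboxypeptidase of Ctsa, which protects it, and the sialidase of Neu1. The changes of these partners had the other sign and did not pass. Ctsa was at 1486 to 2159 on the P21 arrays, against 1203 to 1645 on the P1 arrays, and Neu1 at 620.2 to 943 on the P21 arrays, against 521 to 662 on the P1 arrays. Ctsa had a change of 0.37 ± 0.15 (adjusted p = 0.0766, 0.0246 with the replicate block and 0.0252 without P21 replicate 1, 0.0246 to 0.348 over the alternatives), and Neu1 one of 0.39 ± 0.15 (adjusted p = 0.0617, 0.0443 with the replicate block, 0.0484 with the filter at the 60th percentile and 0.0276 without P21 replicate 2, 0.0276 to 0.23 over the alternatives). The 95% intervals, 0.04 to 0.71 for Ctsa and 0.06 to 0.72 for Neu1, lie above that of Glb1, -1.23 to -0.41. The difference between genes was not itself tested.

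Gusb, beta-glucuronidase, and Man2b1, alpha-mannosidase, did not pass. P21 replicate 4 was the highest array of both, with 1159.9 against a mean of 561 on the other P21 arrays for Gusb and 878 against a mean of 539 on the other P21 arrays for Man2b1. The change of Gusb was 0.11 ± 0.25, or -0.15 without that array. For Man2b1 it was 0.45 ± 0.20 (adjusted p = 0.101), or 0.28 without P21 replicate 4, and it passed with the replicate block (adjusted p = 0.0107) and without P21 replicate 2 (adjusted p = 0.048, 0.0107 to 0.282 over the alternatives).

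**Figure D3:**
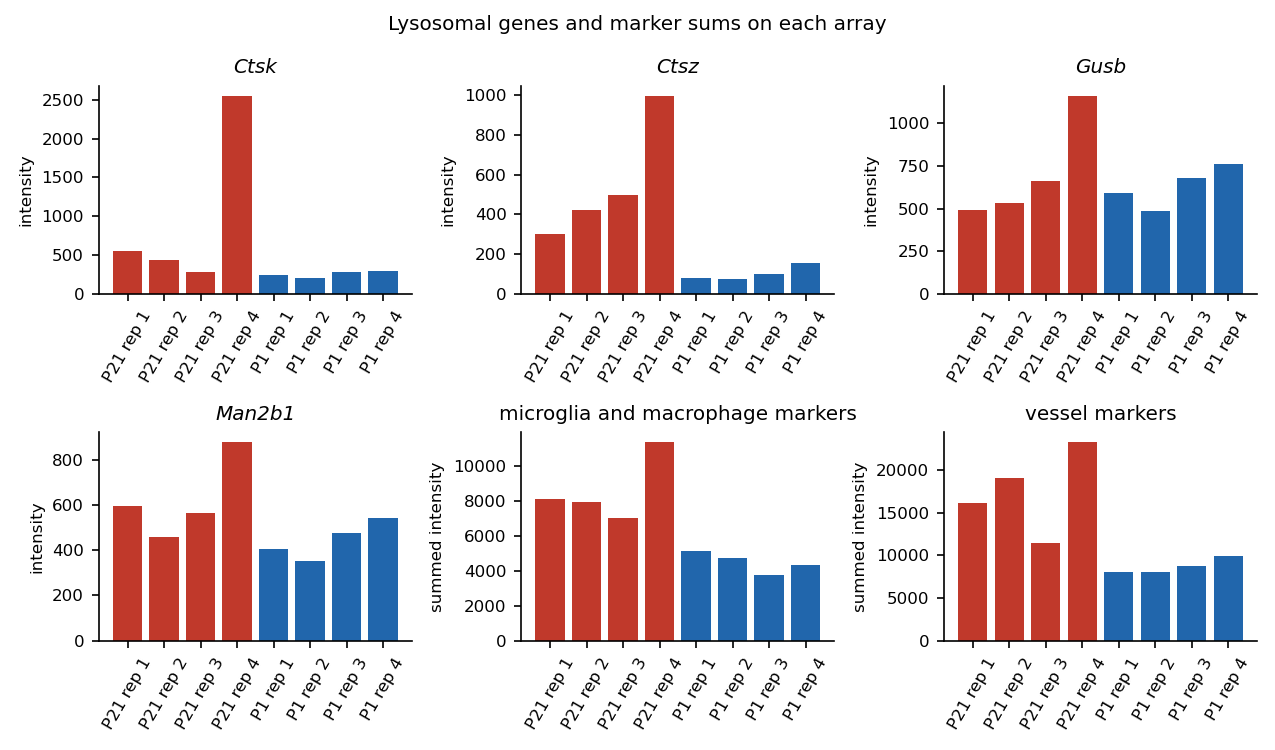
Linear intensity of Ctsk, Ctsz, Gusb and Man2b1 and the summed intensity of the microglia and macrophage markers and of the vessel markers on each of the 4 P21 and 4 P1 arrays (rep, replicate). P21 replicate 4 is the tallest bar in every panel, at 2549 for Ctsk. The vessel markers include the collagen genes Col1a1 and Col1a2, which make up most of the vessel bar of that array.

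Of 7 genes for lipid and sulfate breakdown, 2 rose, 0 fell and 5 did not pass. Lipa, the acid lipase that frees cholesterol from its esters, read 2265, 2061, 2329 and 2376 on the P21 arrays, against 1266, 1324, 1292 and 1419 on the P1 arrays. The P21 values were tightly grouped above all P1 values, and Lipa rose 1.69-fold (change 0.76 ± 0.09, adjusted p = 1.31e-04). Arsa, which removes sulfate from the myelin lipid sulfatide and is deficient in metachromatic leukodystrophy, read 643, 501, 630.0 and 536 on the P21 arrays, against 415, 409.7, 390.4 and 454 on the P1 arrays. Without overlap it rose 1.36-fold (change 0.45 ± 0.11, adjusted p = 0.00883), and the call was lost on centring (adjusted p = 0.0989) and with quantile normalization (adjusted p = 0.0504, 0.00665 to 0.0989 over the alternatives).

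Galc, which breaks down galactosylceramide, the other main myelin lipid, read 681, 572, 629.6 and 798 on the P21 arrays, against 550.3, 624, 423 and 426 on the P1 arrays. The ages overlapped through P1 replicate 2, and Galc did not pass (change 0.40 ± 0.15, adjusted p = 0.0633). It passed without that array (change 0.51, adjusted p = 0.0241, 0.0241 to 0.162 over the alternatives). The oligodendrocyte sums given above differ between the ages on the same arrays.

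Ppt1, the palmitoyl-protein thioesterase lost in infantile ceroid lipofuscinosis, had a change of 0.32 ± 0.13 (adjusted p = 0.0865), and passed with the replicate block (adjusted p = 0.0186) and with quantile normalization (adjusted p = 0.0377, 0.0186 to 0.436 over the alternatives). Its range was 2016 to 2776 on the P21 arrays, against 1703 to 2145 on the P1 arrays. Psap, the precursor of the saposins that present lipids to these enzymes, had a change of -0.13 ± 0.11 (95% interval -0.39 to 0.12), and Asah1, acid ceramidase, one of 0.00 (95% interval -0.28 to 0.28). Psap was at 3661 to 4737 on the P21 arrays, against 4225 to 4999 on the P1 arrays, and Asah1 at 3008 to 4095 on the P21 arrays, against 3335 to 4164 on the P1 arrays. Both intervals include 0.

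Arsb, which removes sulfate from dermatan and chondroitin chains, gave different answers on its probe sets. The brighter one had a change of 0.16 ± 0.16 (adjusted p = 0.462), with a range of 1239 to 2079 on the P21 arrays, against 1422 to 1659 on the P1 arrays, while the dimmer one read 361, 455, 497 and 745 on the P21 arrays, against 250.4, 271, 264 and 280.4 on the P1 arrays. On the dimmer one the ages did not overlap and it was called higher (0.86 ± 0.19, adjusted p = 0.00512), and the mean of both passed at 0.51 (adjusted p = 0.0223, 0.0223 to 0.935 over the alternatives).

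Of 6 membrane proteins tested, 3 rose, 1 fell and 2 did not pass. Cd63, a tetraspanin of late endosomes, lysosomes and exosomes, read 3933, 4024, 4015 and 4791 on the P21 arrays, against 6987, 6216, 7482 and 7213 on the P1 arrays. Every P21 array was lower than every P1 array, and Cd63 was 1.66-fold lower at P21 (change -0.73 ± 0.10, adjusted p = 4.19e-04). P21 replicate 4 was the highest P21 array, and the change without it was -0.80.

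Scarb2, the receptor that carries glucocerebrosidase to lysosomes, read 1674, 1269, 1524 and 1436 on the P21 arrays, against 1218, 722, 989.9 and 895 on the P1 arrays. It rose 1.55-fold without overlap (change 0.63 ± 0.16, adjusted p = 0.0108). Lamp1, a major glycoprotein of the lysosomal membrane, whose promoter holds the 5 motifs shown above, read 5239.8, 5391, 5756 and 5074 on the P21 arrays, against 4353, 4328, 4426 and 4379 on the P1 arrays. The 4 P1 values were almost equal and all P21 values were higher (1.23-fold, change 0.29 ± 0.08, adjusted p = 0.0181). The other Lamp1 probe sets, with means of 24.1 and 103 at P21 and 45.4 and 113 at P1, were under the filter level on every array and not tested. The related Lamp2, which also serves chaperone-mediated autophagy, read 3745, 3566, 3769 and 3905 on the P21 arrays, against 2935, 3154, 3068 and 3189 on the P1 arrays. It rose 1.21-fold (change 0.28 ± 0.08, adjusted p = 0.0224), and its other probe set rose too (0.39 ± 0.10, adjusted p = 0.0139).

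On centring, neither Lamp1 nor Lamp2 passed (changes of 0.16 and 0.14, adjusted p = 0.358 and 0.398). Lamp2 was also lost with no filter (adjusted p = 0.0539) and without P21 replicate 4, P1 replicate 1 or P1 replicate 3 (adjusted p between 0.0568 and 0.0612, 0.00629 to 0.398 over the alternatives). Mcoln1, the calcium-release channel of lysosomes, had a change of 0.07 ± 0.12 (95% interval -0.21 to 0.35) and Laptm4a, a small membrane protein of late endosomes, one of 0.04 ± 0.10 (95% interval -0.18 to 0.26). The ages overlapped for both, with Mcoln1 at 1444 to 2158 on the P21 arrays, against 1564 to 1776 on the P1 arrays, and Laptm4a at 2748 to 3310.0 on the P21 arrays, against 2747 to 3173 on the P1 arrays.

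Cln3, the membrane protein lost in juvenile ceroid lipofuscinosis, was the gene that was not tested. All 24 of its values, from 3 probe sets, were under the filter level, between 73.3 and 139 at P21 and between 99.8 and 196 at P1. On 1 probe set all P21 values were below all P1 values (117, 112, 73.3 and 92.8 on the P21 arrays, against 171, 135, 196 and 148 on the P1 arrays), and no fold is given under the filter level.

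Grn, the gene of progranulin, a secreted and lysosomal glycoprotein whose partial loss causes frontotemporal dementia, fell. It read 1511, 1314, 1250.1 and 1998 on the P21 arrays, against 2292, 1837, 2429 and 2613 on the P1 arrays. The single highest P21 array, replicate 4, exceeded the lowest P1 array, replicate 2, and the other P21 arrays lay below all P1 arrays. Grn was 1.52-fold lower at P21 (change -0.60 ± 0.17, adjusted p = 0.0174), or fell by 0.74 on the log2 scale without P21 replicate 4 (adjusted p = 0.00384). The call was lost without P21 replicate 2 or P1 replicate 4 (adjusted p = 0.0509 and 0.0515, 0.00384 to 0.0515 over the alternatives). Progranulin is abundant in microglia, and the microglial sum given above was higher at P21 on every array. How much of the Grn signal came from microglia or from motoneurons at either age was not tested.

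Tfeb read 1233, 1107, 1035 and 999 on the P21 arrays, against 1078, 952, 795 and 891 on the P1 arrays. The ages overlapped, and Tfeb did not pass (change 0.24 ± 0.12, adjusted p = 0.143, 95% interval -0.03 to 0.50). It passed with the replicate block (adjusted p = 0.0478, 0.0478 to 0.571 over the alternatives).

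**Figure D4:**
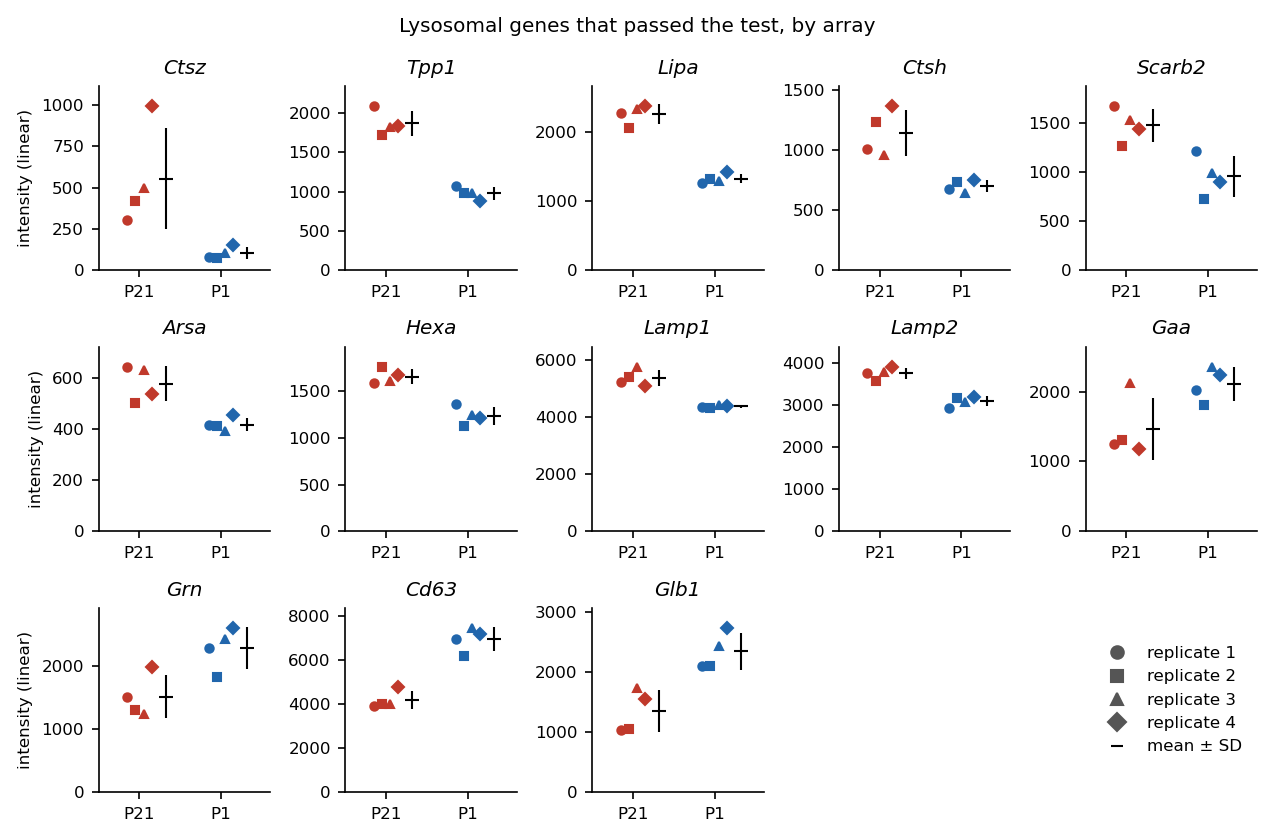
Linear intensity of the 13 lysosomal genes that passed limma's test on each of the 4 P21 (red) and 4 P1 (blue) arrays, with the marker shape giving the replicate and the bar the mean ± SD, in order of change. For Gaa and Grn a P21 array lies within the P1 range, and for the other 11 genes the ages do not overlap.

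The rest of the pathway was described by 6 further lists of lysosomal and autophagy genes. Together 116 of their genes were tested, and 43 rose (37.1%, against 22.1% of all genes), 4 fell (3.45%, against 17.4%) and 69 did not pass. On centring 27 rose (23.3%, against 14.5% of all genes in that fit) and 7 fell (6.03%, against 21.8%). Of 24 further hydrolases and activators, 10 rose and 1 fell (45.8% called, against 39.5% of all genes), with a median change of 0.36. Ctss, a cathepsin of microglia and other antigen-presenting cells, read 1650.2, 1121, 1405 and 1307 on the P21 arrays, against 461, 328, 482 and 564 on the P1 arrays. It led that list (change 1.56 ± 0.17, adjusted p = 1.02e-04). Pla2g15, a lysosomal phospholipase, fell by 0.66 ± 0.16 on the log2 scale (adjusted p = 0.0109).

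Of 17 further membrane proteins 9 rose and 0 fell (52.9% called, against 39.5% of all genes), with a median change of 0.42. Laptm5, a lysosomal protein of blood-derived cells, read 1037, 717, 835 and 2197 on the P21 arrays, against 574, 411, 442 and 526 on the P1 arrays. P21 replicate 4 was again highest (change 1.13 ± 0.30, adjusted p = 0.0153). Of 18 subunit genes of the vacuolar proton pump that acidifies lysosomes, 3 rose and 0 fell, with a median change of -0.01. That is 16.7% called, below the 39.5% of all genes. Atp6v0a2 rose by 0.62 ± 0.12 on the log2 scale (adjusted p = 0.003).

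For sorting and trafficking, 6 of 20 genes rose and 0 fell (30% called, against 39.5% of all genes, median change 0.08). Vps39 of the tethering complex HOPS led them (change 0.64 ± 0.11, adjusted p = 0.00165). Among the relatives of TFEB and the mTORC1 regulators, 5 of 15 rose and 2 fell (46.7% called, median change 0.11). Mitf, a transcription factor of the TFEB family, read 519.9, 499, 475 and 619 on the P21 arrays, against 150.4, 149, 148 and 115 on the P1 arrays. All P1 values were under the filter level, so this probe set too was kept through P21 alone and had to differ, with a rise of at least 2.02-fold (fitted change 1.80 ± 0.12, adjusted p = 4.88e-06). Fnip2, a partner of folliculin, fell by 0.45 ± 0.10 on the log2 scale (adjusted p = 0.00544).

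Of 22 autophagy genes, 10 rose and 1 fell (50% called, against 39.5% of all genes), with a median change of 0.29. Wipi1, which binds the forming autophagosome, read 1049.8, 925, 903 and 1103 on the P21 arrays, against 545, 473, 440.1 and 497 on the P1 arrays. It rose by 1.00 ± 0.11 on the log2 scale without overlap (adjusted p = 7.49e-05), while the kinase gene Ulk2 fell by 0.65 ± 0.18 on the log2 scale (adjusted p = 0.0207). These lists hold genes known from glia and phagocytes, such as Ctss and Laptm5, and how much of each rise lies in motoneurons was not tested.

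**Figure D5:**
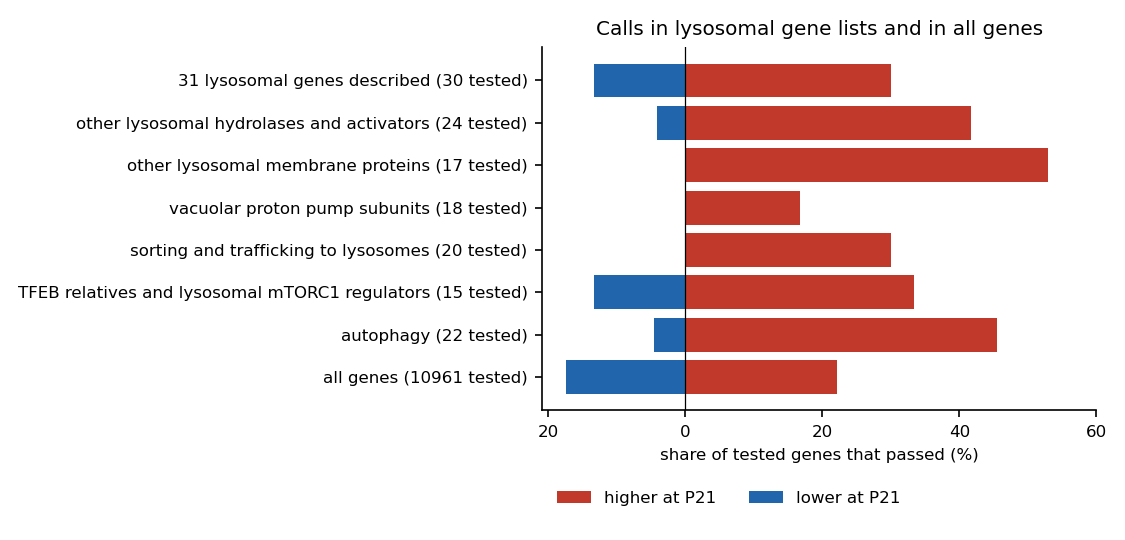
Share of tested genes that passed limma's test in each lysosomal or autophagy list and in all 10961 genes, with rises at P21 to the right of 0 and falls to the left (%). The 30 tested lysosomal genes described one by one have 30% rises and 13.3% falls, and all genes have 22.1% and 17.4%.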

How the data were processed

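Expression was measured on 8 Affymetrix RAE230 2.0 arrays, 4 of P21 and 4 of P1 motoneuron pools. The table the authors deposited holds linear intensities for 31042 probe sets, between 66 and 250 per array below 0. Summarisation, background correction and normalization of the arrays are not given in the sources used here, and depth is not defined for arrays, whose number limits the precision. Genes were named through the platform annotation, with symbols looked up by gene identifier in the GRCr8 table. Of the probe sets, 20826 had 1 symbol, 436 several and 9780 none, and 0 symbols changed.

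Values below 0 were set to 0, log2(intensity + 16) was fitted with limma 3.58.1 in R 4.3.3 (lmFit, eBayes) without covariates, and probe sets over the 40th percentile of their array on at least 4 of 8 arrays were kept. For each gene the brightest kept probe set, by its mean over all arrays, was used. Of the 44 probe sets of the 31 genes, 11 lay under the filter level on every array and were not tested. They belong to Lamp1, Ctsc, Gaa, Arsa, Asah1, Neu1, Man2b1 and Cln3. The fit was checked on simulated data. Alternatives changed the pseudocount, filter, scaling, block, probe-set rule and arrays used, 1 at a time.

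The 31 genes and the lists were chosen with earlier results of these data known. All 31 genes are named. From each further list the called genes of largest rise and fall are named, and from each marker list the genes of highest mean, while Chat, Isl1 and other markers were named after their values were seen. Same-numbered arrays of the ages had deviations from their age means that correlated at 0.514, 0.321, 0.558 and 0.150 for numbers 1 to 4. The highest value between different numbers was 0.366, for P21 replicate 3 with P1 replicate 4. P1 replicate 4 thus went more with P21 replicate 3 than with P21 replicate 4. The main fit left the arrays unpaired, and pairs by number were used in the replicate block alone. Per the design text, litters were divided between the ages and replicates processed independently, but no source says that a number marks a litter. Promoters are from RefSeq, and TATAAA was most frequent at the same position on both strands, so they were read as on the strand of the gene.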

Additional observations from a re-analysis of the deposited data

Results flagged for a closer look

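Of 60 sets of 4 arrays, 4 held a value far from the other 3, where chance flags about 1 in 20. On P21 replicate 4, Ctsk read 2549, against 288 to 557 on the other P21 arrays, and Cd63 read 4791, against 3933 to 4024. On P21 replicate 3, Gaa read 2124, against 1185 to 1311, and Ctsb read 6182, against 5557 to 5646. The causes were not tested.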

How the results depend on the processing

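Of 475 refitted changes of the 30 genes under 16 alternatives, 428 kept their direction and side of the threshold, 18 lost a call, 17 gained one and 12 turned sign. The calls of Tpp1, Lipa, Ctsh, Scarb2, Cd63 and Glb1 held under every alternative run. The filter kept Ctsz through P21 alone, which fixed its direction in advance, so its call is not a sign of stability. The 15 refits of Ctsz are nevertheless among the 475 and the 428, and say nothing of stability. The filter at the 60th percentile left Arsa, Ctsc, Ctsk, Ctsz and Man2b1 untested. The count of rises was 9, or 5 with the arrays centred on their medians and 15 with the paired fit (replicate block). With 1 array left out, 8 to 11 genes rose. The count of falls was 4, or 3 with no filter and 5 with the mean of the kept probe sets of a gene. With 1 array left out, 2 to 4 genes fell (2 without P21 replicate 2 or P1 replicate 4). In the 6 further lists 43 genes rose, or 27 on centring, and 4 fell, or 7 on centring, 7 with the replicate block and 2 to 7 with 1 array left out (7 without P21 replicate 3, 2 without P21 replicate 4 or P1 replicate 4). Signs turned in genes that never passed. On centring the changes were -0.13 for Asah1, -0.0304 for Gusb, -0.095 for Laptm4a and -0.0715 for Mcoln1, and with 1 array left out they ranged over -0.0449 to 0.10 for Asah1, -0.15 to 0.25 for Gusb and -0.0299 to 0.16 for Mcoln1. The cause was not tested, beyond the shift of the median of all genes that centring brings. The paired fit added the calls of Ctsa, Ctsc, Man2b1, Neu1, Ppt1 and Tfeb and changed no other call of the 30 genes.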

Other observations

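Among the P1 arrays, P1 replicate 2 was the lowest P1 array for 18 of the 30 tested genes (60%), against 30.5% of all genes, and P1 replicate 4 was the highest for 16 (53.3%), against 34.2% of all genes. At P21 the shares were near those of all genes, with the highest array being replicate 3 for 12 genes (40%) and replicate 4 for 11 (36.7%), against 38.3% and 33.9% of all genes. The genes share their libraries, so these counts are descriptions.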
